A study of Schmidtea mediterranea with 48 samples.

Results

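PC2 and ChAT, a pair of neuronal marker genes, were followed in 48 RNA-seq libraries from wound faces of planarian tail fragments. They are 2 of the 26563 transcripts in the count table, chosen by identifier: dd_Smed_v4_1566_0_1 for PC2 and dd_Smed_v4_6208_0_1 for ChAT. The deposited tables give identifiers and no gene names, so both names come from the choice of the transcripts. Both passed the filter on low counts in every fit.

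PC2 is a prohormone convertase, a protease that cuts neuropeptide precursors into active peptides, and it marks most of the planarian nervous system. ChAT is choline acetyltransferase, the enzyme that makes acetylcholine, and it marks cholinergic neurons. A planarian tail fragment keeps the posterior ends of the paired ventral nerve cords and regrows a head with a new brain at its anterior wound.

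The animals were asexual Schmidtea mediterranea of strain CIW4, and poly(A) RNA was taken from dissected wound faces, pooling 5 wounds for each replicate. In the first experiment, myoD RNAi animals were compared with controls after 10 feedings of double-stranded RNA over 5 weeks, per the sample labels (the series text gives 8 feedings). In the second, follistatin (fst) RNAi animals were compared with controls after 6 feedings over 3 weeks. All control animals were fed double-stranded RNA of unc-22, a Caenorhabditis elegans gene, so every group had been fed double-stranded RNA. Each of these 4 arms was sampled at 4 times, written as hpa for hours after amputation: 0, 6, 24 and 48 hpa. This gives 16 groups of 3 libraries. myoD encodes a muscle transcription factor and follistatin encodes a secreted inhibitor of Activin-type ligands. RNAi lowers a transcript without deleting its gene, and the level of the targeted transcripts was not read here, because the files give them no names. Whether the 3 replicates used different animals is not stated in the labels, so the p-values describe variation between libraries that could be technical.

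Libraries of the 10-feeding experiment held 11698530 to 21974437 counts and those of the 6-feeding experiment 7169717 to 22065480. The counts of PC2 ran from 501 to 2703 with a median of 1637.5, and those of ChAT from 263 to 1159 with a median of 632. 1 library stood apart from its group: fst RNAi at 48 hpa, replicate 1, whose label notes human contamination, so fst comparisons at 48 hpa are also given without it. A single transcript, dd_Smed_v4_28185_0_1, had 21 to 85 counts in the 9 libraries of fst RNAi at 24 hpa, fst RNAi at 48 hpa and 6-feeding control at 48 hpa, and 0 to 5 counts in the other 39 libraries. Those 9 libraries share that mark, which therefore separates fst RNAi from control at 24 hpa. It also separates 24 and 48 hpa from 0 and 6 hpa after fst RNAi, and 48 hpa from 0, 6 and 24 hpa in 6-feeding controls. Its part in the results was not tested.

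Both markers were detected in every library. Levels are given in CPM, the read count scaled to a common library size with TMM factors, without division by transcript length, so the levels of PC2 and ChAT are not compared with each other. The group means of PC2 ran from 86.5 ± 6.1 CPM in 10-feeding controls at 6 hpa to 122.0 ± 9.0 CPM in 6-feeding controls at 6 hpa (SD, n = 3 each), a span of 1.41-fold. The group means of ChAT ran from 35.0 ± 1.4 CPM in 10-feeding controls at 6 hpa to 51.3 ± 3.9 CPM in 6-feeding controls at 0 hpa (SD, n = 3 each), a span of 1.46-fold. When the 16 groups were put in order of level, the libraries of neighbouring groups overlapped in 15 of 15 pairs for each marker. These spans lay near the middle of those of other transcripts. Of 2539 transcripts within 2-fold of PC2's level, 60.2% had a larger span, and of 4641 transcripts within 2-fold of ChAT's level, 52.0% did. In bulk wound tissue, fewer neurons and less marker RNA per neuron cannot be told apart.

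**Figure D1:**
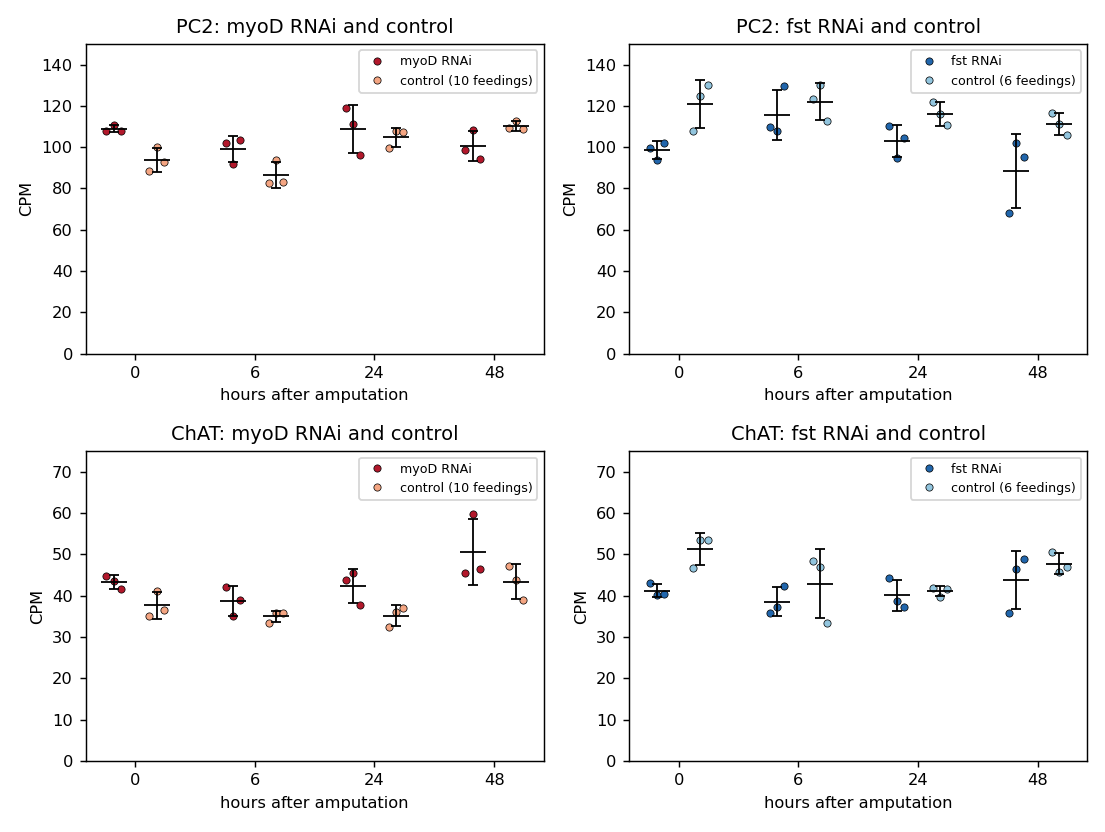
Level of PC2 (top) and ChAT (bottom) in CPM by hours after amputation, for myoD RNAi and its control (left) and fst RNAi and its control (right). Points are single libraries and bars the mean ± SD over 3 libraries. The lowest PC2 point, 68.1 CPM, is replicate 1 of fst RNAi at 48 hpa.

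After myoD RNAi, ChAT was higher than in the matched controls, and after fst RNAi, PC2 was lower, when the 4 times of an experiment were averaged. Averaged over the 4 times, ChAT rose 1.16-fold in myoD RNAi wound faces (log2 fold change 0.21 ± 0.05 SE, 95% interval 0.11 to 0.31, adjusted p = 0.00188, edgeR quasi-likelihood test with Benjamini-Hochberg adjustment). All 12 myoD RNAi libraries had more ChAT than the mean of the controls of their time. Libraries of a time share their control mean, so such counts are not of independent values. The share of all transcripts reaching such counts was not taken. PC2 averaged 0.08 ± 0.03 SE higher on the log2 scale in the same libraries, which did not pass (adjusted p = 0.0907), and 8 of 12 libraries lay above the control mean. It passed without myoD RNAi replicate 3 at 24 hpa (0.10, adjusted p = 0.0293) or control replicate 2 at 6 hpa (0.098, adjusted p = 0.0473). This comparison called 19.1% of 17527 transcripts tested.

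In the fst experiment, PC2 fell to 0.860 of the control level on average over the 4 times (log2 fold change -0.22 ± 0.06 SE, 95% interval -0.33 to -0.10, adjusted p = 0.0149). PC2 was below the control mean of its time in 11 of 12 fst RNAi libraries, a count with the same limits as those after myoD RNAi. Without fst RNAi at 48 hpa replicate 1 the log2 fold change was -0.18, with an adjusted p of 0.00460. ChAT averaged -0.16 ± 0.06 SE on the log2 scale, which did not pass (adjusted p = 0.121); it was below the control mean in 10 of 12 libraries, and without control replicate 3 at 6 hpa it was -0.20 with an adjusted p of 0.0189. This comparison called 7.88% of 17815 transcripts tested. The averages over time were chosen as a test after the values at single times had been seen.

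The effect of myoD RNAi minus the effect of fst RNAi, averaged over the 4 times, was positive for both markers. In a fit of all 48 libraries it was 0.30 ± 0.07 SE on the log2 scale for PC2 (95% interval 0.16 to 0.44, adjusted p = 0.00217). For ChAT it was 0.37 ± 0.08 SE (95% interval 0.21 to 0.53, adjusted p = 0.00149). Without fst RNAi at 48 hpa replicate 1 the values were 0.26 (adjusted p = 0.000855) for PC2 and 0.34 (adjusted p = 0.00130) for ChAT. Of 18230 transcripts tested, 10.1% were called. The 2 RNAi treatments were given in experiments with different numbers of feedings and with their own controls, so gene and experiment cannot be told apart in this difference.

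At single times, neither marker passed in any of the 8 comparisons of RNAi with control, in edgeR or in DESeq2. For each marker, 4 of 8 comparisons had an unadjusted p under 0.05. The share of all transcripts with such a p was not taken, so these counts cannot be set against it.

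For PC2 after myoD RNAi, the mean was above that of controls at 0, 6 and 24 hpa and below it at 48 hpa. At 0 hpa it had 108, 111 and 108 CPM after myoD RNAi, against 88.7, 100.03 and 93.0 CPM in controls. The groups did not overlap, as was so for 14.7% of all transcripts at this time. The log2 fold change was 0.21 ± 0.07 SE, with a 95% interval of 0.07 to 0.35 and an adjusted p of 0.287, in a comparison that called 0.588% of transcripts. At 6 hpa PC2 had 102, 91.9 and 103 CPM after myoD RNAi, against 82.8, 93.6 and 83.1 CPM in controls. The groups overlapped through 1 control library, with a log2 fold change of 0.20 (adjusted p = 0.223) in a comparison that called 0.565% of transcripts.

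The difference was near 0 at 24 hpa and negative at 48 hpa. At 24 hpa PC2 had 119, 111 and 96.1 CPM after myoD RNAi, against 99.4, 108 and 107 CPM in controls, and the myoD RNAi libraries spanned the controls. PC2 differed by 0.05 on the log2 scale (adjusted p = 0.710, with 5.84% of transcripts called). At 48 hpa PC2 had 98.6, 109 and 94.3 CPM after myoD RNAi, against 109, 113 and 109 CPM in controls. All 3 myoD RNAi libraries lay below the controls, without overlap as for 37.3% of all transcripts, by a log2 fold change of -0.13 that did not pass (adjusted p = 0.180; 25.6% of transcripts called).

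The effect of myoD RNAi on PC2 differed between times. The test of all 4 times together gave an adjusted p of 0.0444, with 11.2% of transcripts called, and the effect at 48 hpa minus that at 0 hpa was -0.34 ± 0.10 SE on the log2 scale (95% interval -0.54 to -0.14, adjusted p = 0.0208, 12.9% called). The second call was lost without control replicate 1 at 0 hpa (-0.30, adjusted p = 0.0642). The first was lost when any of 14 libraries of the 24 was left out, with adjusted p-values up to 0.0895. In a fit of all 48 libraries neither passed (adjusted p = 0.269 and 0.109). For ChAT the same tests gave adjusted p-values of 0.923 over all times and 0.937 for the difference between 48 and 0 hpa, which was 0.02 (95% interval -0.25 to 0.30).

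**Figure D2:**
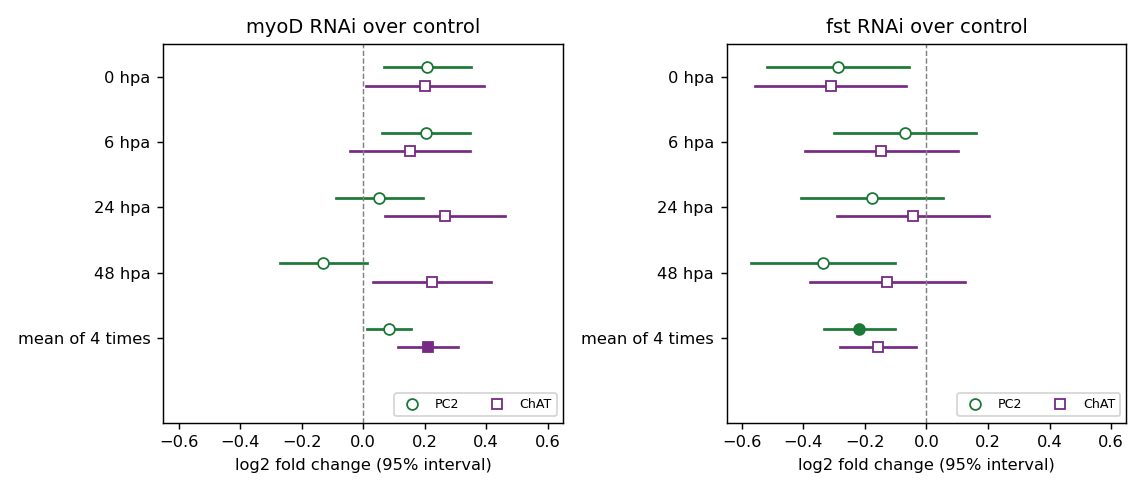
Log2 fold change of PC2 (circles) and ChAT (squares) in myoD RNAi over control (left) and fst RNAi over control (right), at each time and averaged over the 4 times, with 95% intervals. Filled symbols passed an adjusted p of 0.05: ChAT at 0.21 for the myoD average and PC2 at -0.22 for the fst average.

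ChAT had a positive log2 fold change at each of the 4 times after myoD RNAi, without passing at any. At 0 hpa it had 44.8, 43.6 and 41.6 CPM after myoD RNAi, against 35.1, 41.2 and 36.6 CPM in controls. The groups did not overlap, as for 14.7% of transcripts, with 41.6 CPM the lowest after myoD RNAi and 41.2 CPM the highest in controls. ChAT differed by 0.20 on the log2 scale (adjusted p = 0.645). At 6 hpa it had 42.2, 35.1 and 38.8 CPM after myoD RNAi, against 33.4, 35.8 and 35.7 CPM in controls, with overlap and a log2 fold change of 0.15 (adjusted p = 0.589).

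At 24 hpa ChAT had 43.9, 45.6 and 37.6 CPM after myoD RNAi, against 32.3, 36.1 and 37.1 CPM in controls. The groups did not overlap, as was so for 23.1% of transcripts. The log2 fold change was 0.27 ± 0.10 SE (95% interval 0.07 to 0.46, adjusted p = 0.0923), and it passed when myoD RNAi replicate 3 was left out (0.34, adjusted p = 0.0492). At 48 hpa ChAT had 45.5, 59.9 and 46.4 CPM after myoD RNAi, against 47.3, 43.9 and 38.9 CPM in controls; 1 myoD RNAi library was well above the rest and the other 2 lay within the controls. The log2 fold change was 0.22 ± 0.09 SE (95% interval 0.03 to 0.42, adjusted p = 0.0777), and without the high library, replicate 2, it was 0.088 (adjusted p = 0.551).

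Follistatin RNAi wound faces had less PC2 than controls at all 4 times in their means. At 0 hpa PC2 had 99.6, 93.8 and 102 CPM after fst RNAi, against 108, 125 and 129.99 CPM in controls. The groups did not overlap, as for 25% of all transcripts, with a log2 fold change of -0.29 ± 0.11 SE (95% interval -0.52 to -0.06, adjusted p = 0.331), where 0.646% of transcripts were called. At 6 hpa PC2 had 109.9, 108 and 129.6 CPM after fst RNAi, against 123, 130.3 and 112 CPM in controls; the groups overlapped, with a log2 fold change of -0.07 (adjusted p = 0.854; 0.982% called).

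At 24 hpa PC2 had 110.2, 94.97 and 104 CPM after fst RNAi, against 122, 116 and 110.5 CPM in controls. The groups were apart by less than 1 CPM, where 19.7% of transcripts did not overlap, and the log2 fold change was -0.18 (adjusted p = 0.701; 0.842% called). At 48 hpa PC2 had 68.1, 102 and 95.2 CPM after fst RNAi, against 117, 111 and 106 CPM in controls, without overlap as for 19.8% of transcripts. The log2 fold change was -0.34 ± 0.11 SE (95% interval -0.57 to -0.10, adjusted p = 0.0727; 7.3% called). Replicate 1, the library whose label notes human contamination, was the lowest; without it the log2 fold change was -0.18 (adjusted p = 0.303), and without replicate 2 or replicate 3 it was -0.45 (adjusted p = 0.0198) or -0.39 (adjusted p = 0.0481).

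The group means of ChAT were below those of controls at all 4 times after fst RNAi, without passing. At 0 hpa it had 43.0, 40.2 and 40.4 CPM after fst RNAi, against 46.8, 53.5 and 53.6 CPM in controls. The groups did not overlap, as for 25% of transcripts, and the log2 fold change was -0.31 ± 0.12 SE (95% interval -0.56 to -0.07, adjusted p = 0.319). When a fit used only these 2 groups, both markers passed at 0 hpa, PC2 at -0.30 (adjusted p = 0.0164) and ChAT at -0.32 (adjusted p = 0.00950). The share of all transcripts called in that fit is not given here.

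The groups overlapped for ChAT at the later times. At 6 hpa ChAT had 35.9, 37.2 and 42.4 CPM after fst RNAi, against 48.5, 46.9 and 33.3 CPM in controls (log2 fold change -0.15, adjusted p = 0.656). At 24 hpa it had 44.3, 38.8 and 37.3 CPM after fst RNAi, against 42.0, 39.7 and 41.6 CPM in controls (log2 fold change -0.04, adjusted p = 0.973). At 48 hpa it had 35.7, 46.6 and 48.9 CPM after fst RNAi, against 50.6, 45.7 and 47.0 CPM in controls (log2 fold change -0.13, adjusted p = 0.584).

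Replicate 1 of fst RNAi was again the lowest at 48 hpa, and without it the log2 fold change of ChAT was -0.0038. The fst effect was not shown to vary between times for either marker (adjusted p = 0.723 for PC2 and 0.780 for ChAT, with 2.07% of transcripts called). Its value at 48 hpa minus that at 0 hpa was -0.05 for PC2 and 0.18 for ChAT (adjusted p = 0.928 and 0.662, with 1.55% called), and without that library it was 0.11 and 0.31 (adjusted p = 0.756 and 0.346).

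Between the experiments, the effect of myoD RNAi minus that of fst RNAi had its highest value at 0 hpa for both markers. It was 0.51 ± 0.13 SE for PC2 (95% interval 0.24 to 0.78, adjusted p = 0.0555) and 0.52 ± 0.16 SE for ChAT (95% interval 0.21 to 0.84, adjusted p = 0.118), where 0.724% of transcripts were called. Leaving out replicate 1 of fst RNAi at 48 hpa, a library outside this contrast that enters the estimate of the spread, brought the adjusted p to 0.00552 for PC2 and 0.0494 for ChAT. PC2 also passed without 6-feeding control replicate 1 at 0 hpa (0.59, adjusted p = 0.0395). The 0.724% is the share in the fit of all 48 libraries, and the shares called in these refits are not given here. At 6, 24 and 48 hpa the difference was 0.27, 0.22 and 0.20 for PC2 and 0.30, 0.31 and 0.34 for ChAT, and none passed (adjusted p between 0.344 and 0.569). Without the same library the values at 48 hpa were 0.04 for PC2 and 0.22 for ChAT. These 3 comparisons called 1.71%, 0.51% and 0.521% of transcripts.

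Over the 48 hours after amputation, the log2 fold changes of both markers against 0 hpa and between neighbouring times lay between -0.30 and 0.29 in every arm; 48 against 6 hpa was not tested. PC2 passed in 1 of 12 comparisons with 0 hpa and ChAT in none of 12, and in steps between neighbouring times each passed in 1 of 8. All 3 calls were rises in 10-feeding controls. Over all transcripts, the comparisons of 6, 24 and 48 hpa with 0 hpa called 17%, 18% and 10.3% after myoD RNAi and 19.9%, 30.8% and 43.6% in 10-feeding controls. They called 7.72%, 9.46% and 20.3% after fst RNAi and 6.59%, 15.5% and 31.8% in 6-feeding controls. The steps from 6 to 24 and from 24 to 48 hpa called 13.1% and 11.8% after myoD RNAi, 28% and 10.4% in 10-feeding controls, 5.6% and 1.08% after fst RNAi and 6.43% and 4.65% in 6-feeding controls. 

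In 10-feeding controls, PC2 had 109, 113 and 109 CPM at 48 hpa, against 88.7, 100.03 and 93.0 CPM at 0 hpa. It rose by a log2 fold change of 0.21 ± 0.07 SE (95% interval 0.07 to 0.35, adjusted p = 0.0151), without overlap, as for 51.9% of transcripts. Without replicate 1 at 0 hpa the value was 0.17 (adjusted p = 0.0843). In the authors' deposited table for this comparison, PC2 had a log2 fold change of 0.23 and an adjusted p of 0.0202. That was the only one of the authors' 20 deposited tables in which PC2 had an adjusted p under 0.05, and the smallest for ChAT in the authors' deposited tables was 0.211.

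PC2 in 10-feeding controls also rose between the 2 middle times, with 99.4, 108 and 107 CPM at 24 hpa, against 82.8, 93.6 and 83.1 CPM at 6 hpa. The libraries did not overlap, as for 37.9% of transcripts, and the log2 fold change was 0.27 ± 0.07 SE (95% interval 0.13 to 0.41, adjusted p = 0.00435). The same step of ChAT was 0.0035 (95% interval -0.19 to 0.20, adjusted p = 0.986).

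ChAT rose in the last step in 10-feeding controls, with 47.3, 43.9 and 38.9 CPM at 48 hpa, against 32.3, 36.1 and 37.1 CPM at 24 hpa. All 3 later libraries were above the earlier ones, as were those of PC2, and 27% of transcripts did not overlap. The log2 fold change of ChAT was 0.29 ± 0.09 SE (95% interval 0.10 to 0.49, adjusted p = 0.0433), and that of PC2 was 0.07 (adjusted p = 0.596). The call was lost when any of 5 of the 6 libraries was left out: at 24 hpa replicate 1 (0.24, adjusted p = 0.172), replicate 2 (0.33, adjusted p = 0.0677) or replicate 3 (0.34, adjusted p = 0.0545), and at 48 hpa replicate 1 (0.24, adjusted p = 0.209) or replicate 2 (0.30, adjusted p = 0.0922).

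After myoD RNAi the values of the markers at 48 hpa had opposite signs, without passing. PC2 at 48 hpa was -0.13 on the log2 scale relative to 0 hpa (adjusted p = 0.266), and ChAT was 0.21 (95% interval 0.02 to 0.40, adjusted p = 0.163), with its 48 hpa libraries all above those of 0 hpa, where 28.9% of transcripts did not overlap. At 6 hpa PC2 was -0.13 relative to 0 hpa (adjusted p = 0.204), with all 3 later libraries below the earlier ones, where 38.2% of transcripts did not overlap. The last step of ChAT, 48 against 24 hpa, was 0.25 (adjusted p = 0.0764), beside 0.29 in the controls of the same experiment. Without myoD RNAi replicate 2 at 48 hpa, ChAT was 0.073 relative to 0 hpa (adjusted p = 0.722) and 0.12 relative to 24 hpa (adjusted p = 0.490).

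After fst RNAi the log2 fold changes of PC2 against 0 hpa were 0.24 at 6 hpa (adjusted p = 0.216), 0.07 at 24 hpa and -0.15 at 48 hpa. The 6 hpa libraries of PC2 were all above those of 0 hpa, where 34.6% of transcripts did not overlap, and without replicate 1 of fst RNAi at 48 hpa that difference passed (0.24, adjusted p = 0.0455). Without the same library the 48 hpa value of PC2 was 5.9e-05. The values of ChAT were -0.09, -0.03 and 0.09, and 0.22 at 48 hpa without that library (adjusted p = 0.241).

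In 6-feeding controls ChAT had 42.0, 39.7 and 41.6 CPM at 24 hpa, against 46.8, 53.5 and 53.6 CPM at 0 hpa. The groups did not overlap, as for 42.2% of transcripts, and the log2 fold change was -0.30 ± 0.12 SE (95% interval -0.54 to -0.05, adjusted p = 0.0911), with an adjusted p of 0.0295 once fst RNAi at 48 hpa replicate 1 was left out of the fit. By 48 hpa it was -0.09 relative to 0 hpa, and its step from 24 to 48 hpa was 0.21 (adjusted p = 0.372), without overlap as for 30.4% of transcripts. PC2 in these controls stayed between -0.11 and 0.02 relative to 0 hpa at the 3 later times.

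**Figure D3:**
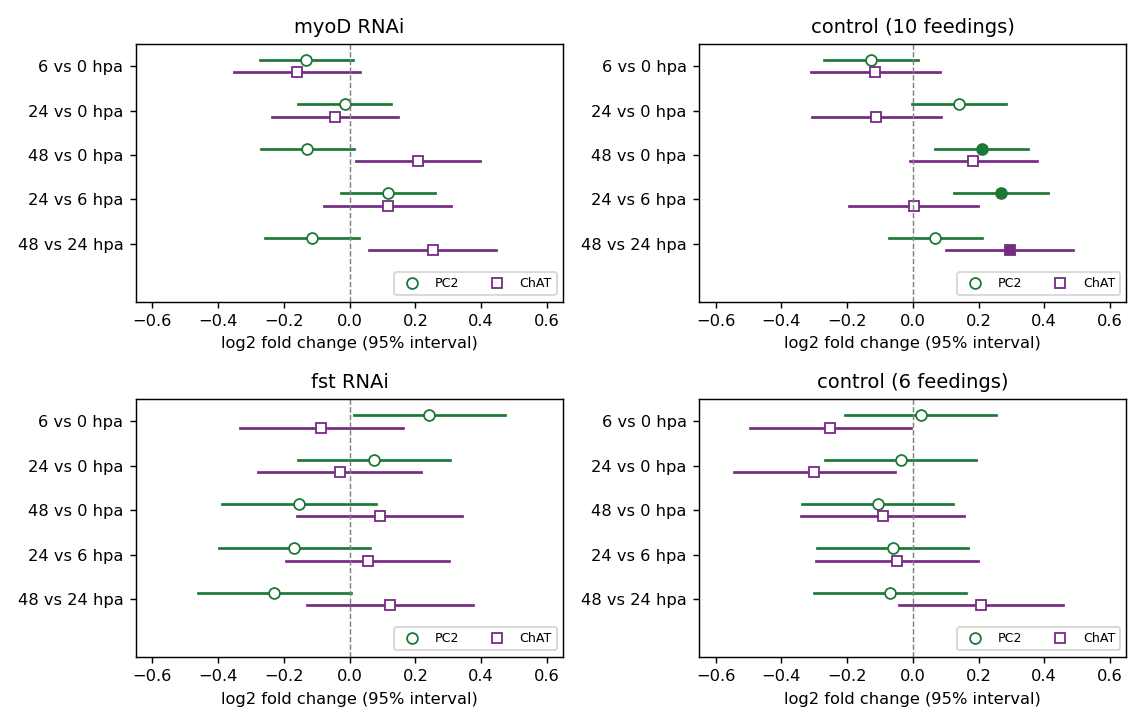
Log2 fold change between times for PC2 (circles) and ChAT (squares) in each of the 4 arms, with 95% intervals. Filled symbols passed an adjusted p of 0.05, and all 3 lie in 10-feeding controls, at 0.21, 0.27 and 0.29.

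The 2 sets of controls differed at 0 and 6 hpa, and at the later times no difference passed. At 0 hpa, 10-feeding controls had less PC2 than 6-feeding controls (log2 fold change -0.36 ± 0.09 SE, adjusted p = 0.0150) and less ChAT (-0.45 ± 0.11 SE, adjusted p = 0.0102), without overlap for either. At this time 5.88% of transcripts were called and 30.9% did not overlap. At 6 hpa PC2 was lower by -0.50 ± 0.10 SE (adjusted p = 9.46e-05) and ChAT by -0.29 ± 0.11 SE (adjusted p = 0.0411), where 33.9% of transcripts were called. The PC2 libraries did not overlap at 6 hpa, as for 42.1% of transcripts, and those of ChAT did. At 24 hpa the values were -0.15 and -0.22, and at 48 hpa -0.01 and -0.14, with adjusted p between 0.423 and 0.981. At 24 hpa the libraries of both markers were without overlap, as for 21.8% of transcripts; 1.72% were called at 24 hpa and 0.477% at 48 hpa.

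The PC2 difference at 6 hpa passed whichever library was left out. The other transcript of PC2's assembly component, dd_Smed_v4_1566_1_1, went the other way at 6 hpa. It had 99.4, 84.5 and 90.1 CPM in 10-feeding controls, against 80.5, 68.7 and 83.5 CPM in 6-feeding controls. These libraries did not overlap, as for 42.1% of transcripts, and a split of reads between the transcripts was not tested. The differences at 0 hpa did not pass without 10-feeding control replicate 1 or 3 or 6-feeding control replicate 2 or 3, with values between -0.31 and -0.36 and adjusted p between 0.0612 and 0.101 for PC2. For ChAT they lay between -0.40 and -0.43, with adjusted p between 0.0523 and 0.0758. The ChAT difference at 6 hpa did not pass without any of 5 of the 6 libraries, with values between -0.19 and -0.31 and adjusted p between 0.0594 and 0.246. The number of feedings and the experiment cannot be told apart here. Since the controls entered the RNAi comparisons, the RNAi levels are set beside them: at 0 hpa PC2 averaged 108.9 ± 1.8 CPM after myoD RNAi and 98.5 ± 4.3 CPM after fst RNAi, against 93.9 ± 5.7 CPM in 10-feeding and 120.8 ± 11.6 CPM in 6-feeding controls (SD, n = 3 each). At that time the 2 controls were the lowest and the highest of the 4 arms for both markers.

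The ratio of PC2 to ChAT reads was lower after myoD RNAi than in controls over the 4 times. It is a ratio within a library, so it does not depend on how libraries were scaled, and it is given as the log2 of PC2 counts over ChAT counts. At 48 hpa it was 0.998 ± 0.13 after myoD RNAi and 1.35 ± 0.14 in controls (SD, n = 3 each), without overlap. At 24 hpa it was 1.36 ± 0.08 after myoD RNAi and 1.58 ± 0.04 in controls, again without overlap. At 0 and 6 hpa the difference was 0.01 and 0.05. The exact 2-sided permutation p was 0.1 at 24 and at 48 hpa, the smallest that 3 against 3 libraries allows. Over the 4 times together the mean difference was -0.13 (exact permutation within times, 160000 arrangements, p = 0.0184). In levels of single transcripts, 23.1% were without overlap at 24 hpa and 37.3% at 48 hpa. How often ratios of other transcript pairs are without overlap was not tested.

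After fst RNAi the ratio at 48 hpa was 1.005 ± 0.11, against 1.22 ± 0.06 in controls (SD, n = 3 each), without overlap (exact permutation p = 0.1). At 24 hpa it was 1.36 ± 0.10 after fst RNAi and 1.497 ± 0.08 in controls, with overlap, and at 0 and 6 hpa the difference was 0.02 and 0.06. Over the 4 times together the mean difference was -0.07 and did not pass (exact permutation p = 0.163). Without replicate 1 of fst RNAi at 48 hpa, the difference was -0.18 at 48 hpa and -0.06 over the 4 times (exact permutation p = 0.231). 8 such tests at single times and 2 over all times were made, with no adjustment. Ratios of other transcript pairs were not tested in this experiment either. In counts, the ratio at 48 hpa corresponded to 1.997 PC2 reads per ChAT read after myoD RNAi, 2.007 after fst RNAi with replicate 1 included, 2.55 in 10-feeding controls and 2.33 in 6-feeding controls.

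**Figure D4:**
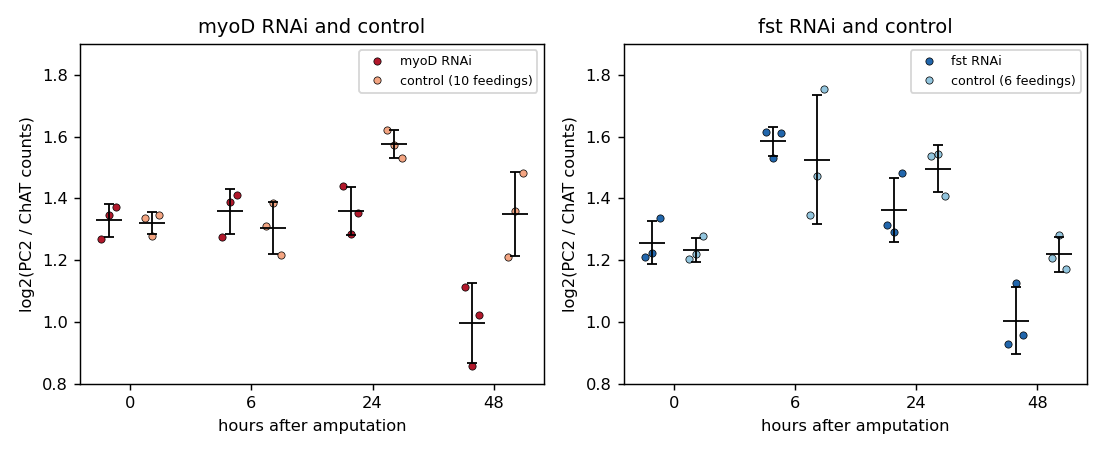
Log2 of PC2 counts over ChAT counts by hours after amputation, for myoD RNAi and control (left) and fst RNAi and control (right); points are libraries, bars the mean ± SD over 3 libraries, and the axis does not start at 0. At 48 hpa the means are 0.998 after myoD RNAi, against 1.35 in controls, and 1.005 after fst RNAi, against 1.22 in controls.

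Within groups, libraries with more PC2 also had more ChAT. Over the 48 libraries, the deviations of log2 CPM from the group mean had a Pearson correlation of 0.77 and a Spearman correlation of 0.79 (permutation p = 1e-05 for each, the smallest that 100000 resamples can give, and 3e-05 adjusted over 3 correlations). Without the 2 libraries farthest from their group in PC2, both fst RNAi at 48 hpa, Pearson's correlation was 0.75, with group means unchanged. With replicate 1 of fst RNAi at 48 hpa left out before the group means were taken, Pearson's correlation was 0.72. It was 0.69 when the 2 libraries then farthest were also left out. With all libraries it was 0.76 in the 24 of the 10-feeding experiment (permutation p = 0.00131) and 0.78 in the 24 of the 6-feeding experiment (permutation p = 0.00224). The 2 markers share each library's scaling, which can move both together, and the part of that in the correlation was not tested. How many other transcripts correlate as well with either marker within groups was not tested. Over the 48 libraries with group differences kept, the correlation was 0.53. ChAT then ranked 1043 in likeness to PC2 among 15234 transcripts, and PC2 ranked 190 in likeness to ChAT. Across the 16 group means the correlation of PC2 with ChAT was 0.40, a description over 16 points. It was not tested against the correlation within groups.

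**Figure D5:**
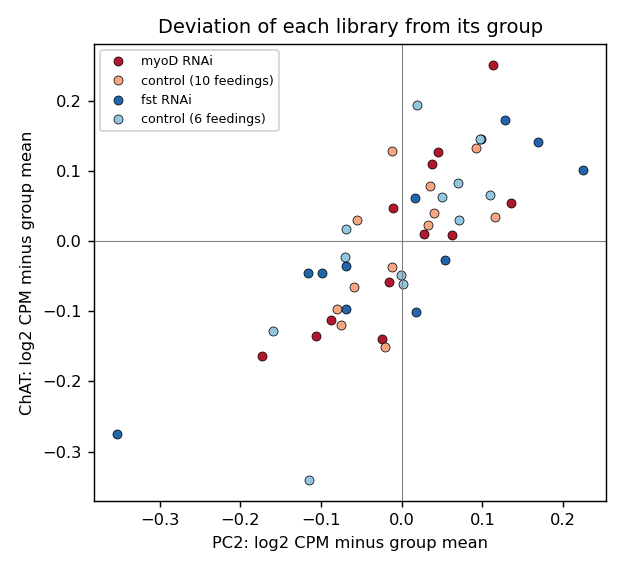
Deviation of each library from its group mean in log2 CPM, PC2 on the horizontal axis and ChAT on the vertical, coloured by arm. The 48 points rise together (Pearson's correlation 0.77), and the point farthest to the left is replicate 1 of fst RNAi at 48 hpa.

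The transcripts whose pattern was most like that of each marker were found by Pearson's correlation over the 16 group means, among 15234 transcripts with a mean of at least 1 CPM. ChAT was followed most closely by dd_Smed_v4_11630_0_1 (0.94) and dd_Smed_v4_20646_0_1 (0.93). The first of these ranked first for ChAT also by Spearman's correlation and over the 48 libraries. PC2 was followed most closely by dd_Smed_v4_4703_0_1 (0.88) and dd_Smed_v4_6242_0_1 (0.88), and neither was among its closest 2 by the other measures. A correlation of at least 0.9 was reached by 3 transcripts for ChAT and 0 for PC2. ChAT ranked 2876 in likeness to PC2, and PC2 ranked 1919 in likeness to ChAT.

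PC2's assembly component holds 2 transcripts and ChAT's holds 1, and reads of related transcripts may be split between them. The other transcript of PC2's component, dd_Smed_v4_1566_1_1, has no name here. Its correlation with PC2 over the 16 group means was -0.22. Its direction was that of PC2 in myoD RNAi over control at 48 hpa and in 10-feeding controls from 0 to 48 hpa. In myoD RNAi over control at 0, 6 and 24 hpa it was -0.057, -0.074 and -0.015 on the log2 scale, without passing. PC2 had the opposite sign there, with 0.21, 0.20 and 0.05. After myoD RNAi at 6 against 0 hpa dd_Smed_v4_1566_1_1 rose by 0.31 (adjusted p = 0.00861, 17% of transcripts called), where PC2 was -0.13. From 0 to 48 hpa in the other arms, with all libraries, the directions were opposite. At 48 hpa dd_Smed_v4_1566_1_1 had 77.0, 73.3 and 84.6 CPM after myoD RNAi, against 106, 107 and 94.97 CPM in controls. This was a fall of -0.39 on the log2 scale (adjusted p = 0.000856, and 0.0543 in a fit of all 48 libraries). Between 48 and 0 hpa it rose by 0.48 in 10-feeding controls (adjusted p = 2.35e-05), 0.80 after fst RNAi (adjusted p = 0.00320) and 0.78 in 6-feeding controls (adjusted p = 0.00160), beside 0.16 after myoD RNAi (adjusted p = 0.262). The fst value was 0.38 without replicate 1 at 48 hpa (adjusted p = 0.00601), and in a fit of only the groups compared, with that library, it did not pass (0.82, adjusted p = 0.135). After fst RNAi at 48 hpa it had 185, 93.0 and 90.1 CPM, highest in replicate 1, where PC2 was lowest. Against controls this gave 0.04 (adjusted p = 0.923) with that library and -0.37 (adjusted p = 0.0103) without it.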

How the data were processed

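Poly(A) RNA of 48 libraries in 16 groups was counted by the authors, and the deposited table holds raw counts per transcript and library. Per the submitters' processing notes, the tools were Bowtie 1.1.1, cutadapt 1.8, SAMtools, CASAVA and DESeq; use of strand in counting is not given in these sources. The authors' 20 comparison tables hold, per the file headers, group means as a normalised signal (counts divided by size factors), fold changes as a ratio, the log2 of that ratio, and a p-value with its adjusted value.

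Counts were fitted with edgeR 4.0.16 in R 4.3.3 (filterByExpr, TMM, robust quasi-likelihood, 1 coefficient per group), apart for each experiment of 24 libraries and jointly for comparisons between experiments. Adjusted p-values are Benjamini-Hochberg values over all transcripts tested in a comparison, and a call is an adjusted p under 0.05. SE was taken as |log2 fold change|/√F. Biological variation (BCV) was estimated at 8.34% for the 10-feeding and 13.03% for the 6-feeding fit. CPM was scaled over all 48 libraries. Log2 ratios of PC2 to ChAT counts used a pseudocount of 0.5.

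Total counts ran from 7169717 to 22065480, and the first row of the table, dd_smedV4_0_0_1, took 4.19% to 11.6% of them. Alternatives were RLE scaling, DESeq2 1.42.0, no filter, a replicate block, a fit of all libraries or of only the groups compared, and leaving out each library. Shares of transcripts called belong to the main fits and are not given for the alternatives. Each marker's closest transcripts were the 2 with the highest correlation. The files give 0 identifiers a name, so lists of neural and other cell type markers were not tested and no sequence is shown. The markers, lists and tests were chosen with earlier results of these data known, and the means over 4 times after the values at single times.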

Additional observations from a re-analysis of the deposited data

Results flagged for a closer look

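The effect of myoD RNAi on PC2 passed the test for a difference between times. The test over the 4 times had an adjusted p of 0.0444, and the effect at 48 hpa minus that at 0 hpa was -0.34 on the log2 scale, with an adjusted p of 0.0208. Neither passed in the fit of all 48 libraries (adjusted p = 0.269 and 0.109). The first was lost in 14 of 24 fits without 1 library (adjusted p up to 0.0895), and the second without control replicate 1 at 0 hpa (-0.30, adjusted p = 0.0642). PC2 had 98.6, 109 and 94.3 CPM after myoD RNAi at 48 hpa, against 109, 113 and 109 CPM in controls, and 108, 111 and 108 CPM after myoD RNAi at 0 hpa, against 88.7, 100.03 and 93.0 CPM in controls.

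The effects of myoD RNAi and fst RNAi differed for both markers when averaged over the 4 times, with an adjusted p of 0.00217 for PC2 and 0.00149 for ChAT in the fit of all 48 libraries. The mean effects were 0.08 after myoD RNAi and -0.22 after fst RNAi for PC2, and 0.21 after myoD RNAi and -0.16 after fst RNAi for ChAT, on the log2 scale. Of all transcripts tested, 10.1% were called. These averages were chosen after the values at single times had been seen, and gene and experiment cannot be told apart in the difference.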

How the results depend on the processing

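Of 105 results, 68 kept their direction and their side of the threshold in all alternatives run, including ChAT in myoD RNAi over control and PC2 in fst RNAi over control as means of 4 times and the PC2 difference between controls at 6 hpa. Under RLE scaling none changed. In the fit of all 48 libraries, PC2 in 10-feeding controls at 48 against 0 hpa (0.23), ChAT there at 48 against 24 hpa (0.30) and the variation of the myoD effect on PC2 (adjusted p = 0.269 over all times and -0.35 for 48 against 0 hpa) no longer passed, while PC2 in fst RNAi over control at 48 hpa (-0.33) and ChAT in 6-feeding controls at 24 against 0 hpa (-0.32) passed. With only the groups compared, ChAT in 10-feeding controls at 48 against 24 hpa (0.28) and dd_Smed_v4_1566_1_1 after fst RNAi at 48 against 0 hpa (0.82) no longer passed, PC2 after myoD RNAi at 24 against 0 hpa turned to 0.0012, and 4 others passed: fst RNAi over control at 0 hpa for PC2 (-0.30) and ChAT (-0.32), PC2 after fst RNAi at 6 against 0 hpa (0.25) and ChAT in 6-feeding controls at 24 against 0 hpa (-0.31). DESeq2 called the myoD minus fst effect on PC2 at 0 hpa (0.51) and not ChAT between controls at 6 hpa (-0.28). PC2 between controls at 48 hpa turned to 0.011 without the filter. Over 48 libraries, 0 transcripts reached a correlation of 0.9 with ChAT. The causes were not tested.

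The main fits did not pair samples by replicate number. Deviations from group means in RNAi and control libraries of the same number had correlations from -0.341 to 0.467 over 24 pairs. These were not set against libraries of different numbers, so they cannot show whether samples were paired. With a replicate block, PC2 between controls at 0 hpa (-0.34) and ChAT between controls at 6 hpa (-0.30) no longer passed, PC2 between controls at 48 hpa turned to 0.0077, and no other call changed.

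Leaving out 1 library at a time gave these ranges where a call or direction changed. For RNAi over control they were 0.20 to 0.34 for ChAT and -0.013 to 0.13 for PC2 at 24 hpa after myoD RNAi, -0.12 to 0.0051 for ChAT at 24 hpa and -0.45 to -0.18 for PC2 at 48 hpa after fst RNAi. As means of 4 times they were 0.067 to 0.10 for PC2 after myoD RNAi and -0.20 to -0.13 for ChAT after fst RNAi. For the myoD effect at 48 against 0 hpa they were -0.11 to 0.073 for ChAT and -0.40 to -0.30 for PC2, whose adjusted p over all times ran from 0.0164 to 0.0895. The fst effect on PC2 at 48 against 0 hpa ran from -0.16 to 0.11. For the myoD minus fst effect at 0 hpa they were 0.48 to 0.59 for ChAT and 0.45 to 0.59 for PC2. In 10-feeding controls ChAT ran from -0.037 to 0.061 at 24 against 6 hpa, 0.13 to 0.29 at 48 against 0 hpa and 0.24 to 0.38 at 48 against 24 hpa, and PC2 from 0.17 to 0.26 at 48 against 0 hpa. In 6-feeding controls ChAT ran from -0.36 to -0.26 at 24 against 0 hpa and -0.20 to 0.033 at 24 against 6 hpa, and PC2 from -0.11 to 0.021 at 24 and -0.052 to 0.083 at 6 against 0 hpa. After fst RNAi ChAT ran from -0.11 to 0.018 at 24 against 0 hpa and -0.021 to 0.13 at 24 against 6 hpa, and PC2 from -0.27 to 5.9e-05 at 48 and 0.16 to 0.29 at 6 against 0 hpa. After myoD RNAi at 24 against 0 hpa ChAT ran from -0.092 to 0.029 and PC2 from -0.080 to 0.063. Between controls ChAT ran from -0.52 to -0.40 at 0 hpa and -0.45 to -0.19 at 6 hpa, and PC2 from -0.44 to -0.31 at 0 hpa and -0.035 to 0.026 at 48 hpa. The fst difference in the log2 ratio of PC2 to ChAT over 4 times ran from -0.089 to -0.038, with a permutation p of 0.0462 at the lowest, without 6-feeding control replicate 1 at 6 hpa. dd_Smed_v4_1566_1_1 in fst RNAi over control at 48 hpa ran from -0.37 to 0.22.

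The number of calls over all transcripts moved by more than 1.5 times in 25 of 34 comparisons in the fit of all libraries and in 147 of 426 fits without 1 library, so an adjusted p near the threshold rests on the other transcripts too. With 3 libraries a group, an adjusted p above the threshold does not show equal levels.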
